A study of Homo sapiens with 6 samples.

Results

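The genes described here encode the proteins that carry glucose into the cell, break it down to pyruvate and feed pyruvate into the tricarboxylic acid (TCA) cycle. They are 49 named genes for glucose transporters, glycolytic enzymes, pyruvate-handling proteins and TCA cycle enzymes, of the 60671 gene identifiers in the count files, and all 49 symbols were matched to 1 Ensembl identifier each. Enzymes of the pentose phosphate pathway and subunits of the respiratory chain were not included. Their transcripts were measured by RNA-seq in the human β cell line EndoC-βH1, with the genotype label WT, of which 3 samples received 1 µM AZD7762, an inhibitor of the checkpoint kinases CHEK1 and CHEK2, and 3 received the vehicle DMSO. DMSO or AZD7762 was present during a starvation of 1 h in 0.5 mM glucose and during the stimulation of 1 h that followed. The stimulation used either 0.5 or 20 mM glucose, and the labels do not say which concentration each library received. The samples come from 1 cell line. The study's general methods call in vitro replicates independent, but the labels do not say of these libraries that they were separate cultures, and p-values measure only the spread between these samples, which may be technical.

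In β cells, glucose metabolism is the sensor for insulin secretion. Glucose enters through facilitative transporters, is phosphorylated and split by glycolysis, and yields pyruvate, which enters mitochondria through a carrier made of MPC1 and MPC2. There the pyruvate dehydrogenase complex turns it into acetyl-CoA, or pyruvate carboxylase turns it into oxaloacetate. The pyruvate dehydrogenase kinases (PDK1 to PDK4) phosphorylate the complex and switch it off, and PDK4 is best known for its transcriptional induction during fasting. ATP made from this flux closes potassium channels and sets off insulin release.

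The libraries held between 20486391 and 29402440 counts, so that 3 counts, used as a floor of detection that covers counting error only, corresponded to between 0.102 and 0.144 CPM (counts normalized to library size with the TMM factors of edgeR). Together the 49 genes took 0.806% to 0.873% of the counts with DMSO and 0.859% to 0.922% with AZD7762. The labelled cell type was checked against 17 β cell markers, all of which passed the filter on low counts, with INS at 1260 ± 351 CPM and CHGA at 3600 ± 202 CPM in DMSO (SD, n = 3). Of these 17, MAFA was the 1 called between the groups, higher with AZD7762. The level of INS is uncertain, because 37.5% of its exon length is shared with another gene on the same strand. The endothelial markers CDH5 and KDR were at 0 in all 6 samples, and of 4 acinar markers, CELA3A, AMY2A and PNLIP were at 0 too. The acinar marker CPA1 lay between 21 and 22.6 CPM with DMSO and between 24.7 and 27.5 CPM with AZD7762, and it was not called. Of the 2 delta cell markers, neither was called, and they went opposite ways from DMSO to AZD7762, SST from 215 ± 12.4 to 254 ± 11.5 CPM and HHEX from 20.4 ± 3.2 to 17.9 ± 1.43 CPM (SD, n = 3). The 5 mesenchymal markers summed to between 15.7 and 20.8 CPM with DMSO and between 17.3 and 20.7 CPM with AZD7762, and none was called. Among them COL1A2 was the 1 whose groups did not overlap. It went from 2.92 ± 0.275 CPM with DMSO to 4.36 ± 0.403 CPM with AZD7762 (SD, n = 3). The part of the differences in CPA1, SST and COL1A2 in the results below was not tested. In bulk samples, fewer cells of a type and less RNA per cell cannot be told apart.

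PDK4 rose with AZD7762, and it was the 1 gene among the 49 to pass the test. It had 267, 258 and 260 normalized CPM in the 3 DMSO samples and 501, 701 and 601 CPM in the 3 AZD7762 samples. The lowest AZD7762 sample lay well above the highest DMSO sample, while the 3 AZD7762 samples differed among themselves far more than the 3 DMSO samples did. The means were 261 ± 4.98 and 601 ± 100 CPM (SD, n = 3 in each group), which is a 2.3-fold difference. The log2 fold change was 1.20 (standard error 0.0982, 95% interval 0.99 to 1.41, adjusted p = 2.62e-05, from the quasi-likelihood test of edgeR after adjustment over 17649 genes). At this threshold of an adjusted p under 0.05, 0.708% of all genes tested were called with 0.357% called as higher and 0.351% as lower, beside 1 of the 47 genes of this group that passed the filter. Among the 63 genes called as higher, PDK4 ranked 30 by log2 fold change and 3 by its level in CPM with DMSO. PDK4 (ENSG00000004799) lies on chromosome 7 of GRCh37 from 95212811 to 95225828 on the minus strand, and its exons overlap no other gene listed in the count files.

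**Figure D1:**
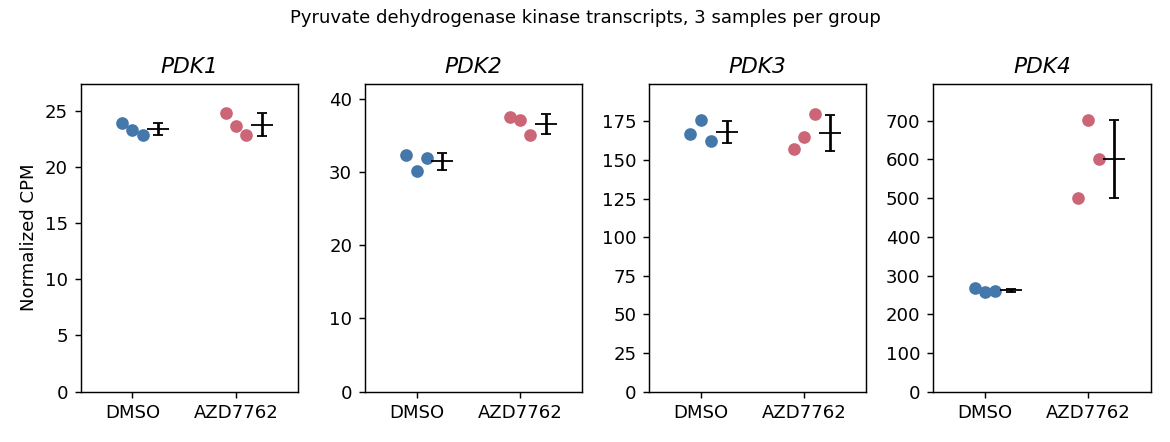
Normalized CPM of the 4 pyruvate dehydrogenase kinases in the 3 DMSO and 3 AZD7762 samples (points), with the mean and SD beside them (black) and an axis of its own from 0 in each panel. PDK4 rose from about 261 to 601 CPM, PDK2 lay slightly higher in all AZD7762 samples, and the groups overlapped for PDK1 and PDK3.

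The other pyruvate dehydrogenase kinases differed less between the groups, and none of them was called. PDK2, the widely expressed kinase of the family, had 32.3, 30.2 and 31.9 CPM with DMSO and 37.5, 37.1 and 35.0 CPM with AZD7762, so that the groups did not overlap. Its log2 fold change was 0.22 (95% interval 0.07 to 0.36, unadjusted p = 0.00726, adjusted p = 0.275 in edgeR's test). Of the exon length of PDK2, 38.6% overlaps SAMD14 on the opposite strand, which held between 10 and 23 counts a sample. PDK3, the kinase encoded on the X chromosome, had 167, 176 and 162 CPM with DMSO and 157, 165 and 180 CPM with AZD7762, with overlapping groups and a log2 fold change of -0.01 (95% interval -0.15 to 0.13). PDK1, a known target of hypoxia-inducible factor, had 23.9, 23.3 and 22.8 CPM with DMSO and 24.8, 23.6 and 22.8 CPM with AZD7762, and its groups overlapped, with a difference of 0.03 on the log2 scale (95% interval -0.13 to 0.18). Per kilobase of exon, PDK4 was already the main transcript of the family with DMSO, at 77.2% ± 0.413 of the summed FPKM (CPM per kilobase of exon) of the 4 kinases, and it made up 87.9% ± 1.68 with AZD7762 (SD, n = 3). PDK3 went from 12.9% to 6.45%, PDK2 from 7.72% to 4.52% and PDK1 from 2.11% to 1.09% of the sum, which follows from the larger share of PDK4.

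Because PDK4 moved while its paralogs moved less or not at all by the test, the stretches around their annotated starts are shown side by side. Each runs 5′ to 3′ from 250 bases before to 50 bases after a RefSeq gene start on GRCh38.p14, a newer build than that of the counts, and for PDK1 and PDK2, which have several starts in that table, the one with the highest GC content is shown. The capitals mark the core of the cAMP response element, TGACG, or its reverse complement CGTCA.
PDK4, chr7:95596467-95596766, minus strand: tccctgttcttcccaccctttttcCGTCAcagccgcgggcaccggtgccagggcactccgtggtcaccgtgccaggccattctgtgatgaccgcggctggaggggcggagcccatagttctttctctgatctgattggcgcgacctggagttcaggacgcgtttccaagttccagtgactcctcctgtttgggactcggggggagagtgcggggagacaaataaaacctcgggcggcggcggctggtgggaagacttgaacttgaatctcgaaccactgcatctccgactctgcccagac
PDK2, chr17:50095101-50095400, plus strand: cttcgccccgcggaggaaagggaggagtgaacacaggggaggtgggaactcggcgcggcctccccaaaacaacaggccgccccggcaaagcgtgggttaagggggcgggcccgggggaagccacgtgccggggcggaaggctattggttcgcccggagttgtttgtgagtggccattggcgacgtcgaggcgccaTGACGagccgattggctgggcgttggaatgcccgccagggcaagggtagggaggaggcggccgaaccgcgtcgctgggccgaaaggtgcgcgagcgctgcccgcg
PDK3, chrX:24465036-24465335, plus strand: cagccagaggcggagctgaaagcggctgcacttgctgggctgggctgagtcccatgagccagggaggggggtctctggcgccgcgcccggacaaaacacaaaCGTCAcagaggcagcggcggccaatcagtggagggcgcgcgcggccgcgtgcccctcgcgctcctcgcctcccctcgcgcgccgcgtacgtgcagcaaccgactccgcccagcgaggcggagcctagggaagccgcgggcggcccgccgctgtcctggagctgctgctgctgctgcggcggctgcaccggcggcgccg
PDK1, chr2:172555840-172556139, plus strand: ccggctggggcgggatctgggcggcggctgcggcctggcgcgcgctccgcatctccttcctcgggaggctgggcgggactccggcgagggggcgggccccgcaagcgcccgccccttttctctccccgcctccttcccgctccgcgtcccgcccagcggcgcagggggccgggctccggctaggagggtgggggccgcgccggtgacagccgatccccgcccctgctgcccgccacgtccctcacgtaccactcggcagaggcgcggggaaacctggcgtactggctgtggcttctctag
The PDK4 window held 1 such core, as did those of PDK2 and PDK3 shown here, and that of PDK1 held none. The core in either orientation was present in 24.6% of all 35116 promoter windows of this length and in 18 of the 77 windows (23.4%) of the 46 genes of this group with an entry. The full element TGACGTCA, which contains the core, was in none of the 4 windows and in 1.85% of all windows. The forkhead motif GTAAACA or its reverse complement was in none of the 4 and in 3.42% of all. The core letters of the hypoxia response element, ACGTG, or their reverse complement CACGT were in the windows of PDK1, PDK2 and PDK3, not in that of PDK4, and in 21.4% of all windows. These are matches of letters in a short window and not measured binding.

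Beyond PDK4, the differences were small. For 42 of the 47 genes, the log2 fold change was under 0.2 in size (89.4%, against 79.3% of all genes tested), and the other 46 ranged from -0.20 for PFKFB3 to 0.38 for ALDOA. These limits moved with single libraries, since PFKFB3 was at -0.42 without DMSO replicate 1 and at -0.04 without DMSO replicate 2, ALDOA at 0.52 without DMSO replicate 3, and HK1 at 0.52 without DMSO replicate 1 and 0.16 without DMSO replicate 3. The interval of the log2 fold change lay within 0.5 of 0 for 43 of these 46 and within 0.3 for 35. For the others of the 46, ALDOA, HK1 and PFKFB3, the intervals were wider, reaching 0.66, 0.73 and -0.74. The median over the 47 was 0.06, against 0.01 over all genes tested, and 37 of 47 were higher with AZD7762 (78.7%, against 52.4% of all genes tested). Without DMSO replicate 3 or without AZD7762 replicate 1, 30 of 47 were higher. An unadjusted p under 0.05 was reached by 8 genes, all of them higher, where 9.68% of all genes tested reached that level, 4.43% as higher and 5.25% as lower. For 6 of the 47, all AZD7762 samples lay above all DMSO samples, and for none did all lie below, beside 15.0% of all genes tested whose groups did not overlap, 6.79% with AZD7762 above and 8.25% with AZD7762 below.

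**Figure D2:**
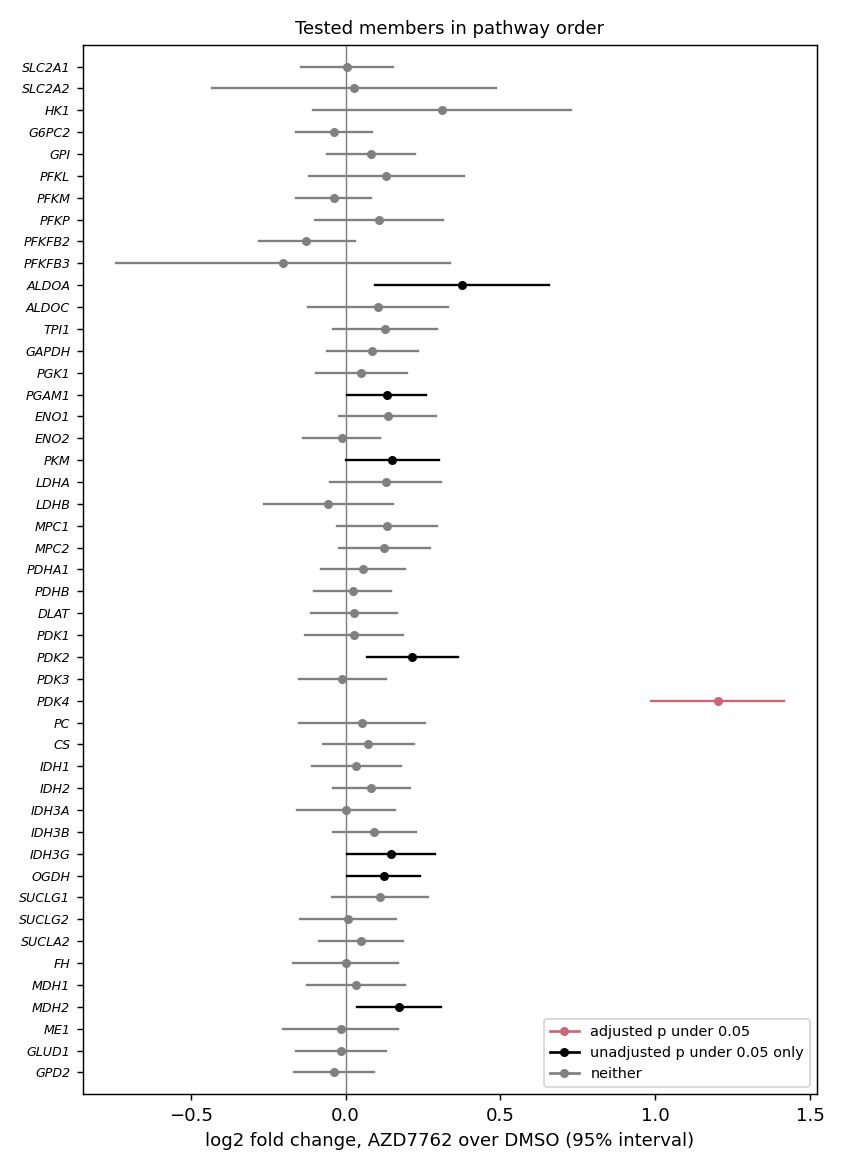
Log2 fold change of AZD7762 over DMSO with its 95% interval for the 47 tested genes, ordered along the pathway from transporters at the top to TCA-linked enzymes at the bottom. PDK4 stands at 1.20 with an interval that does not reach those near 0, and 7 further genes had an unadjusted p under 0.05 without being called.

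At the entry of glucose, the transporter transcripts were at like levels in both groups. SLC2A1, which encodes GLUT1, had 40.1, 36.6 and 35.9 CPM with DMSO and 38.6, 37.4 and 37 CPM with AZD7762, with overlapping groups and a log2 fold change of 0.004 (95% interval -0.145 to 0.153). SLC2A2, which encodes GLUT2, the main glucose transporter of rodent β cells, was far lower, at 1.22, 1.66 and 1.77 CPM with DMSO and 1.35, 1.62 and 1.74 CPM with AZD7762. On the FPKM scale, SLC2A1 had 5.67 ± 0.340 and SLC2A2 had 0.454 ± 0.0856 with DMSO (SD, n = 3). SLC2A1 made up 92.4% of the summed level of SLC2A1, SLC2A2 and SLC2A3 both with DMSO and with AZD7762. This sum leaves out family members outside this group of genes. With DMSO, SLC2A13 had 7.18, SLC2A6 6.51, SLC2A8 1.43 and SLC2A10 0.314 FPKM. SLC2A3, the high-affinity neuronal transporter GLUT3, held 0 to 2 counts a sample and was not tested.

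The hexokinases of this group were scarce. HK1, a high-affinity enzyme of most tissues that is held low in β cells, had 3.59, 2.83 and 2.11 CPM with DMSO and 4.02, 3.71 and 3.00 CPM with AZD7762, with overlapping groups and a log2 fold change of 0.31 (95% interval -0.11 to 0.73, adjusted p = 0.648 in edgeR's test). At 0.413 FPKM with DMSO it lay above 12.9% of the genes tested. HK2, the insulin-regulated enzyme of muscle and fat, had 10, 3 and 5 counts in the DMSO samples and 0, 1 and 0 counts in the AZD7762 samples, and it was not tested because it did not pass the filter. Without the filter, its adjusted p was 0.0697 in edgeR's test. Through these few counts of HK2, the share of HK1 in the summed level per kilobase of HK1 and HK2 went from 91.4% to 99.5%. This sum leaves out HKDC1 and HK3, outside this group of genes, which had 0.73 and 0.336 FPKM with DMSO. G6PC2, the islet glucose-6-phosphatase that reverses glucose phosphorylation, was abundant, with 142, 141 and 135 CPM with DMSO and 134, 140 and 134 CPM with AZD7762. The groups overlapped, and the log2 fold change was -0.04 (95% interval -0.16 to 0.08).

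In the preparatory steps of glycolysis, GPI, the isomerase after glucose phosphorylation, had a log2 fold change of 0.08. PFKM, the muscle-type phosphofructokinase and the most abundant of the 3 per kilobase, had 170, 171 and 160 CPM with DMSO and 164, 164 and 159 CPM with AZD7762, with overlapping groups. PFKL, the liver type, varied more between DMSO samples, with 109, 94.9 and 139 CPM against 131, 113 and 131 CPM with AZD7762. PFKM, PFKL and the platelet-type PFKP (log2 fold changes -0.04, 0.13 and 0.11) took 59.7%, 32.9% and 7.40% of the summed FPKM with DMSO, and 56.8%, 35.4% and 7.80% with AZD7762. The values of PFKL and PFKP rested on single DMSO libraries, at 0.005 and 0.03 on the log2 scale without DMSO replicate 2 and at 0.30 and 0.20 without DMSO replicate 3, where neither was called. PFKFB2 and PFKFB3 are bifunctional enzymes that set the level of fructose 2,6-bisphosphate, an activator of phosphofructokinase, and PFKFB2 was the more abundant of them. PFKFB4, outside this group of genes, had 6.41 FPKM with DMSO, against 3.33 FPKM for PFKFB2. PFKFB2 had 35.0, 35.3 and 31.3 CPM with DMSO and 30.7, 30.9 and 31.6 CPM with AZD7762. The third DMSO sample lay within the AZD7762 range, and its log2 fold change was -0.13 (adjusted p = 0.615 in edgeR's test). PFKFB3, the inducible form, stayed between 0.948 and 1.58 CPM in all 6 samples.

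The aldolases split the 6-carbon sugar into 2 trioses. ALDOC, the brain-type enzyme, had 10.9, 10.8 and 9.11 CPM with DMSO and 11.9, 10.9 and 10.5 CPM with AZD7762. ALDOA, the muscle-type enzyme, had 8.80, 8.68 and 11.7 CPM with DMSO and 13.1, 10.9 and 13.5 CPM with AZD7762, where DMSO replicate 3 lay within the AZD7762 range. Its log2 fold change was 0.38 (95% interval 0.09 to 0.66, unadjusted p = 0.013, adjusted p = 0.346 in edgeR's test). Without DMSO replicate 3, ALDOA passed the test at 0.52 on the log2 scale (adjusted p = 0.0493 in edgeR's test). The level of ALDOA is uncertain, because 42.8% of its exon length is shared with ENSG00000285043 on the same strand, an identifier that held between 70 and 94 counts a sample, and reads in shared exons cannot be given to 1 gene.

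TPI1 and the payoff steps that follow it held the most abundant transcripts of glycolysis, and none was called. GAPDH, which oxidizes glyceraldehyde 3-phosphate, had 1480, 1380 and 1340 CPM with DMSO and 1540, 1510 and 1410 CPM with AZD7762, with overlapping groups and a log2 fold change of 0.09 (95% interval -0.06 to 0.23). It was first in level per kilobase, at 585 ± 29.6 FPKM with DMSO (SD, n = 3), above 99.9% of the genes tested. TPI1, the triose phosphate isomerase, followed with 235 ± 19.3 FPKM and a log2 fold change of 0.13, and ENO1, the ubiquitous enolase, with 134 ± 9.35 FPKM. ENO1 had 753, 686 and 658 CPM with DMSO and 808, 786 and 710 CPM with AZD7762, where AZD7762 replicate 3 lay within the DMSO range (log2 fold change 0.14, adjusted p = 0.591 in edgeR's test). ENO2, the enolase of neurons and endocrine cells, took 23% of the enolase level with DMSO and had a log2 fold change of -0.01. PGK1, the phosphoglycerate kinase, which makes the first ATP of the pathway, had a log2 fold change of 0.05. PGAM1, the phosphoglycerate mutase, had 65.2, 62.0 and 61.0 CPM with DMSO and 69.8, 69.8 and 66.9 CPM with AZD7762, so that the groups did not overlap. The log2 fold change of PGAM1 was 0.13 (unadjusted p = 0.0424, adjusted p = 0.491 in edgeR's test). PKM, the pyruvate kinase of most tissues, had 861, 801 and 756 CPM with DMSO and 916, 927 and 842 CPM with AZD7762, overlapping through AZD7762 replicate 3, with a log2 fold change of 0.15 (unadjusted p = 0.0496, adjusted p = 0.515 in edgeR's test).

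Many of these genes have processed pseudogenes, and reads that match several copies can be lost in counting. The 65 annotated GAPDH pseudogenes together held between 1.67% and 2.05% of the counts of GAPDH, the 13 of PGAM1 between 1.40% and 2.25%, and the 4 of TPI1 between 6.87% and 8.16%. For GAPDH, the mean percentage was 1.91% with DMSO and 1.80% with AZD7762.

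Pyruvate can be reduced to lactate or enter the mitochondrion. LDHA, the lactate dehydrogenase form known to be held low in mature β cells, was well expressed in this line, with 285, 268 and 234 CPM with DMSO and 294, 308 and 259 CPM with AZD7762. The groups overlapped and the log2 fold change was 0.13 (95% interval -0.05 to 0.31). LDHA took 78.7% of the lactate dehydrogenase level per kilobase with DMSO and 80.8% with AZD7762, and LDHB took the rest, with a log2 fold change of -0.055, although 33.4% of the LDHB exon length is shared with ENSG00000285854, which held 0 counts. The carrier subunits MPC1 and MPC2 had log2 fold changes of 0.134 and 0.125 (unadjusted p = 0.0932 and 0.0862, adjusted p = 0.602 and 0.595 in edgeR's test). Of the subunits of the pyruvate dehydrogenase complex, 3 are in this group of genes, and none of the 3 was called. The subunits DLD and PDHX, outside this group, had 42.3 and 14.5 FPKM with DMSO. PDHB, the β subunit of the E1 enzyme and the most abundant of the 3 per kilobase of exon, had 155, 153 and 145 CPM with DMSO. It had 157, 156 and 148 CPM with AZD7762, with overlapping groups and a log2 fold change of 0.02 (95% interval -0.10 to 0.15). With the length of the longest transcript, PDHA1 lay above PDHB with DMSO, at 37.3 against 33.9 FPKM. PDHA1, the α subunit that the kinases phosphorylate, and DLAT, the E2 acetyltransferase, had log2 fold changes of 0.06 and 0.03. Of the exon length of PDHA1, 19.3% overlaps MAP3K15 on the opposite strand, which held between 884 and 1254 counts a sample. PC, pyruvate carboxylase, had 25.4, 25.2 and 31.2 CPM with DMSO and 29.9, 26.1 and 28.6 CPM with AZD7762, with overlapping groups (log2 fold change 0.05).

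In the TCA cycle and the enzymes linked to it, 16 genes were tested, none was called, and the log2 fold changes ranged from -0.04 for GPD2, the mitochondrial glycerol phosphate shuttle enzyme, to 0.17 for MDH2. CS, which condenses acetyl-CoA with oxaloacetate, had 276, 269 and 241 CPM with DMSO and 274, 291 and 263 CPM with AZD7762, with overlapping groups (log2 fold change 0.07). IDH2, the mitochondrial NADP-linked isocitrate dehydrogenase, had 324, 312 and 336 CPM with DMSO and 353, 341 and 335 CPM with AZD7762 and took 53.7% and 53.8% of the isocitrate dehydrogenase level per kilobase in the 2 groups. MDH2, the mitochondrial malate dehydrogenase, had 190, 174 and 179 CPM with DMSO and 214, 205 and 192 CPM with AZD7762. The groups of MDH2 did not overlap, and its log2 fold change was 0.17 (95% interval 0.04 to 0.31, unadjusted p = 0.0171, adjusted p = 0.384 in edgeR's test). OGDH, the E1 subunit of the 2-oxoglutarate dehydrogenase complex, had 127, 126 and 123 CPM with DMSO and 135, 135 and 139 CPM with AZD7762 and did not overlap either, with a log2 fold change of 0.12 (unadjusted p = 0.0426, adjusted p = 0.492 in edgeR's test). IDH3G, a regulatory subunit of the NAD-linked isocitrate dehydrogenase, had 47.5, 45.5 and 49.5 CPM with DMSO and 55.0, 52.6 and 49.9 CPM with AZD7762. Its log2 fold change was 0.15 (unadjusted p = 0.0443, adjusted p = 0.498 in edgeR's test), and 9.89% of its exon length overlaps SSR4 on the opposite strand, which held between 3690 and 5246 counts a sample. The catalytic subunit IDH3A and the fumarase FH had log2 fold changes of 0.00 by the same fit, and 38.8% of the exon length of IDH3A overlaps other genes on the opposite strand. SUCLG1, the subunit shared by both succinyl-CoA ligases, had 83.7, 78.6 and 70.4 CPM with DMSO and 86.4, 85.5 and 79.5 CPM with AZD7762, with overlapping groups and a log2 fold change of 0.11. SUCLG2 and SUCLA2, the GTP- and ATP-specific partners of SUCLG1, had log2 fold changes of 0.01 and 0.05. IDH1 and IDH3B, the cytosolic enzyme and another NAD-linked subunit, had log2 fold changes of 0.04 and 0.09, and MDH1, the cytosolic malate dehydrogenase, had 0.03. ME1 and GLUD1, the cytosolic malic enzyme and glutamate dehydrogenase, had log2 fold changes of -0.02 and -0.01.

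**Figure D3:**
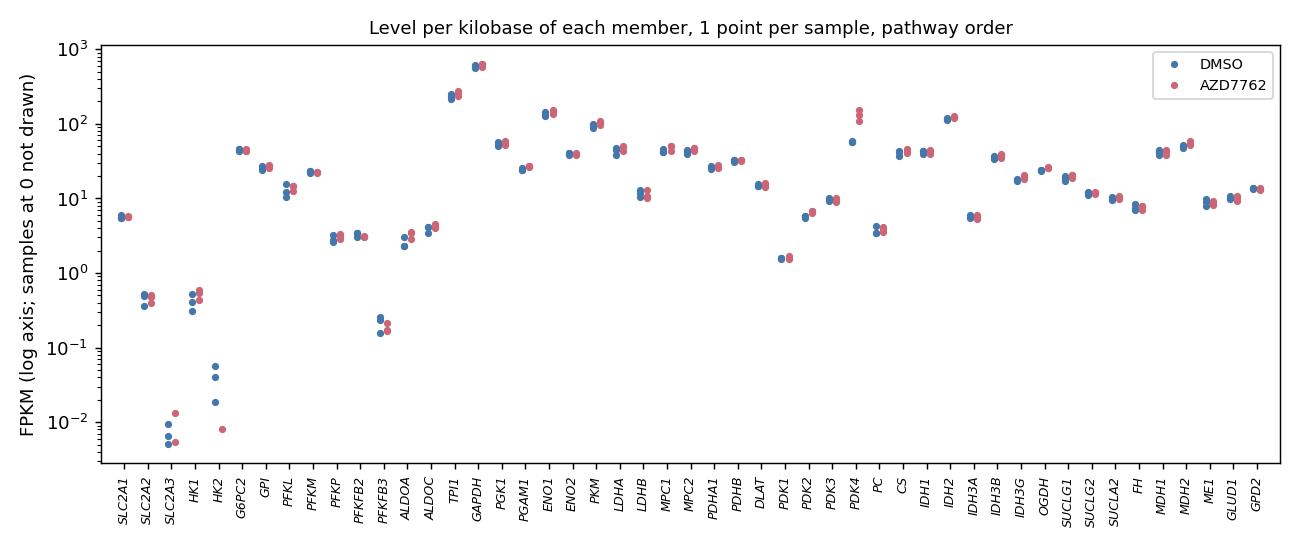
FPKM of the 49 genes on a log axis, 1 point per sample (blue, DMSO; red, AZD7762), in pathway order. Levels spanned from 585 FPKM for GAPDH to under 0.01 for SLC2A3, and PDK4 is the gene whose red points stand clear of its blue points at a high level.

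In level per kilobase with DMSO, the order ran from GAPDH, TPI1, ENO1, IDH2 and PKM to PDK4 at 57.5 ± 1.1 FPKM (SD, n = 3), which was sixth and lay above 96.4% of the genes tested. With AZD7762 PDK4 had 132 ± 22.0 FPKM, which placed it in rank 4. The ranges of PDK4 and its lower neighbour PGK1 overlapped with DMSO, as did those of PGK1 and MDH2, whereas each of the first 5 stood apart from the next. Of the 48 pairs of neighbours in the order, 28 had overlapping ranges over the 3 DMSO samples. These include the run from G6PC2 at 45.4 to ENO2 at 39.9 FPKM, in which LDHA, MPC1, MPC2, IDH1, MDH1 and CS also lie and which is not resolved here. At the low end stood PDK1, SLC2A2, HK1, PFKFB3, HK2 and SLC2A3, all under 2 FPKM. With the length of the longest transcript in place of all exons, 7 of the 10 highest genes stayed among the 10 highest and PDK4 moved to rank 11, so that its rank depends on the length used.

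**Figure D4:**
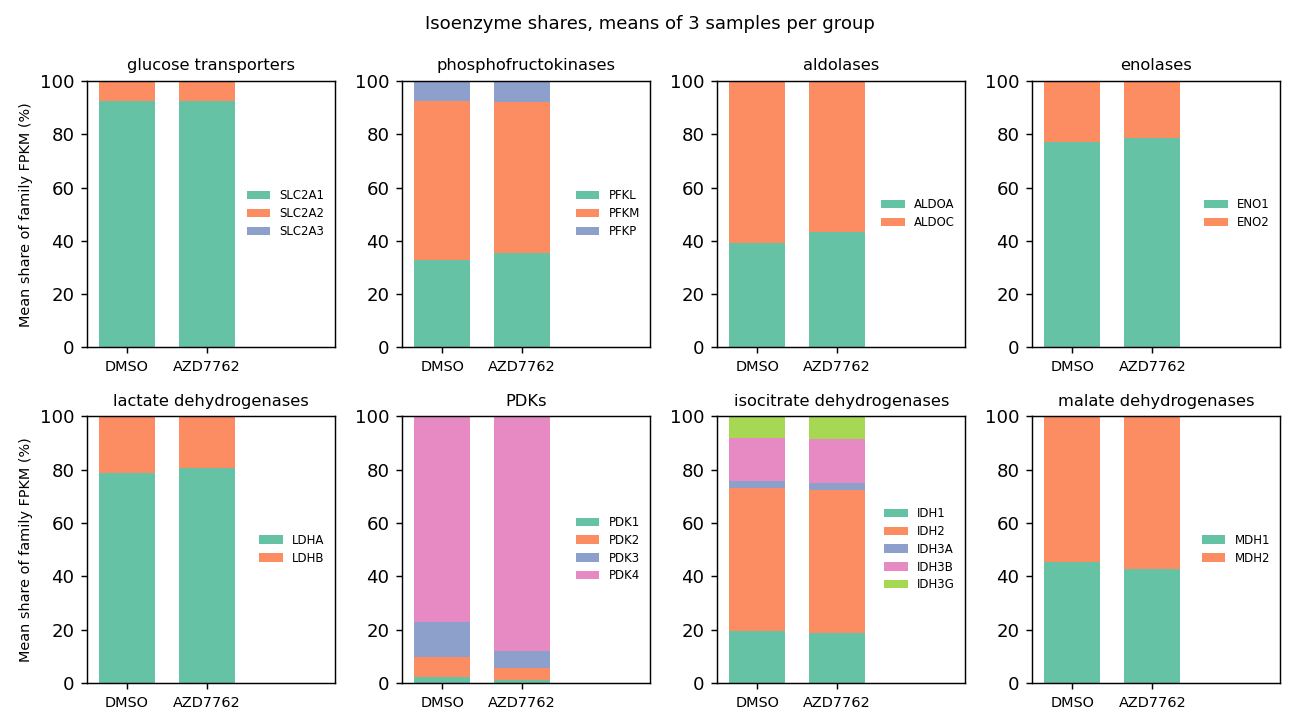
Mean share (%) of the summed FPKM taken by each member, with DMSO and AZD7762 (3 samples each), for glucose transporters, phosphofructokinases, aldolases, enolases, lactate dehydrogenases, PDKs, isocitrate dehydrogenases and malate dehydrogenases. Each sum covers only the genes of this group. The share of PDK4 among the kinases went from 77.2% to 87.9%, while in the other families plotted each member's share moved by less than 5 percentage points.

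The genes also varied together between samples of the same group. AZD7762 replicate 3 and DMSO replicate 3 had the lowest CPM of their groups for 30 of the 47 genes tested (63.8%), against 20.7% of all genes tested. The median deviation of the 47 genes from their own mean over the 6 samples was 0.03, -0.02 and -0.10 on the log2 scale in DMSO replicates 1, 2 and 3, and 0.09, 0.07 and -0.04 in AZD7762 replicates 1, 2 and 3. The median of AZD7762 replicate 3 thus lay below that of DMSO replicate 1. The coefficient of variation between replicates had a median of 6% with DMSO and 5.86% with AZD7762 over the 47 genes, against 7.33% and 7.90% over all genes tested. For PDK4 it was 1.91% with DMSO and 16.6% with AZD7762. The part of this variation between samples in the small excess of genes higher with AZD7762 was not tested. The median GC content of the longest transcripts was 46.5% for the 47 genes and 47.7% for all genes tested, and with trends in GC content and length taken out, an alternative chosen after seeing the data, 40 of 47 were higher.

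**Figure D5:**
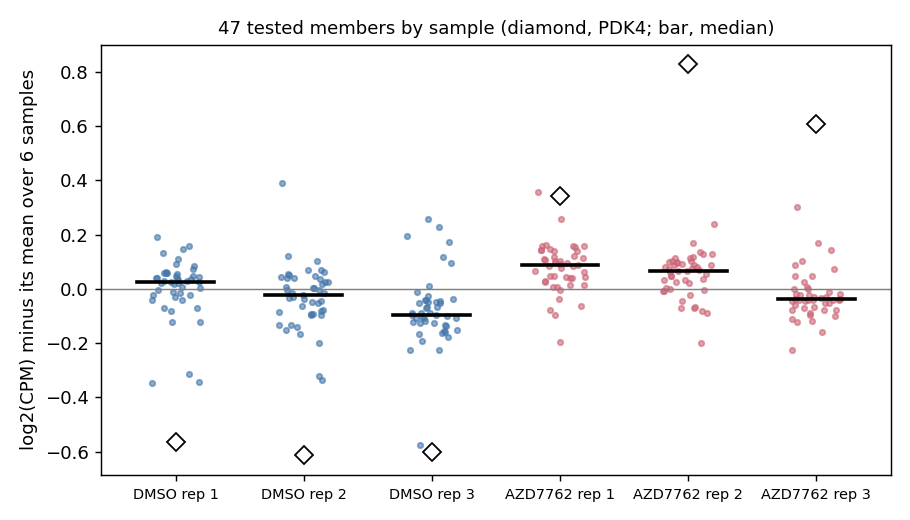
Deviation of log2 CPM from each gene's mean over the 6 samples, for the 47 tested genes in each sample, with PDK4 as diamonds and the median as a bar. The medians range from -0.10 to 0.09 and follow the sample as well as the treatment, whereas PDK4 sits below 0 in the 3 DMSO samples and above 0 in the 3 AZD7762 samples.

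Genes of the same pathways outside this group were read from the same fit. Of 48 further genes for transport, glycolysis, gluconeogenesis, lactate export and mitochondrial carriers, 39 were tested and 0 were called by edgeR, 27 of 39 were higher, the median log2 fold change was 0.03, and 1 had an unadjusted p under 0.05. That gene was SLC25A11, the mitochondrial 2-oxoglutarate carrier, which differed by 0.15 on the log2 scale (adjusted p = 0.478 in edgeR's test). None of these was called by DESeq2 or limma-voom either. PCK1, the gluconeogenic enzyme that fasting induces in liver, and PGAM2, the muscle mutase, had 0 counts in all 6 samples. For PGAM2 this is uncertain, because 100% of its exon length overlaps another gene on the opposite strand and the strand setting is not given. Of 18 hypoxia response genes, which share a regulator with many glycolytic genes, 15 were tested and 0 were called by edgeR, with a median of -0.001. Of these, 4 had an unadjusted p under 0.05, namely ADM (log2 fold change 0.47) and ANKRD37 (0.87, with 40.3% of its exon length under genes on the opposite strand), which had higher values, and VEGFA (-0.17) and INSIG2 (-0.17), which had lower values, with adjusted p between 0.252 and 0.443 in edgeR's test.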

How the data were processed

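Polyadenylated RNA of the 6 samples was sequenced by the authors, who checked reads with FastQC 0.10.1, trimmed them with cutadapt 1.18, aligned the reads to GRCh37 and used HTSeq-count for gene counts. Each deposited file holds the unscaled counts of 1 sample. Of 2 library kits named, 1 was stranded, and which sample had which is not given. The aligner, the annotation release and the strand setting are not given in the sources used here, so counts of overlapping genes on opposite strands are uncertain. Symbols, positions and exon lengths came from the GENCODE v44lift37 annotation, which matched 58646 of 60671 identifiers. A length from another release can shift levels per kilobase.

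The analysis used edgeR 4.0.16 under R 4.3.3. Genes passing filterByExpr (17649) were scaled by TMM and tested with the quasi-likelihood test, with a model of treatment alone. P-values were adjusted by Benjamini-Hochberg over all these genes, at a threshold of 0.05. Normalized CPM are counts over the scaled library total, and FPKM are these per kilobase of merged exons. Standard errors are the log2 fold change over the square root of F. Alternatives used limma 3.58.1, DESeq2 1.42.0, other scaling and filters, the replicate block and leaving out each sample. The procedure was tested on simulated data.

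All members are accounted for. Values by sample are given for members called, with an unadjusted p under 0.05, or most abundant per kilobase among the members of their family. The carrier pair MPC1 and MPC2 was not treated as a family for this. Values by sample are also given for the steps with 1 gene PKM, GAPDH, PC, CS and G6PC2. Values by sample of SLC2A2, HK2, PFKL, PDK1 and PDK3 were added after their values were seen. Members and lists were chosen with earlier results of these data known.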

Additional observations from a re-analysis of the deposited data

How the results depend on the processing

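PDK4 was called under all alternatives run, with log2 fold changes between 1.07 and 1.31. Whether differences of the size seen in the other genes could be called at this depth and number of samples was not tested. Against 125 genes called in all, there were 330 without the filter, 239 after removal of trends with GC content and length (chosen after seeing the data), 378 with the replicate block, and between 77 and 168 with 1 sample left out, the fewest without AZD7762 replicate 1. The cause was not tested. Of the genes described here, 1 was called under all of these except without DMSO replicate 3, where 2 were (range 1 to 2), PDK4 and ALDOA. Between samples with the same replicate number, the correlations of deviations from the group means were 0.0533, 0.124 and 0.21 for numbers 1, 2 and 3. All were weak and above 0, and whether the numbers pair the samples was not tested. The block turned the direction of none of the 47 genes and added no call among them.

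Directions turned only for genes near 0, none of them called: SLC2A1 (-0.013 with upper-quartile scaling, 0.000 with at least 10 counts in every sample, -0.009 with GC content and length), IDH3A (-0.002 with RLE scaling and with limma-voom, -0.017 with upper-quartile scaling, -0.003 without the filter, -0.004 with at least 10 counts), FH (-0.002, -0.017, -0.003 and -0.004 with RLE, upper-quartile, no filter and at least 10 counts), SUCLG2 (-0.011 with upper-quartile scaling), and, with GC content and length, PDK3 (0.054), ME1 (0.020), GLUD1 (0.045) and GPD2 (0.019). With 1 sample left out, the log2 fold changes that turned ranged from -0.030 to 0.076 for DLAT, -0.048 to 0.076 for FH, -0.064 to 0.043 for GLUD1, -0.010 to 0.083 for IDH1, -0.058 to 0.054 for IDH3A, -0.165 to 0.011 for LDHB, -0.019 to 0.092 for MDH1, -0.087 to 0.046 for ME1, -0.007 to 0.159 for PC, -0.002 to 0.051 for PDHB, -0.015 to 0.056 for PDK1, -0.063 to 0.025 for PDK3, -0.023 to 0.052 for SLC2A1, -0.136 to 0.126 for SLC2A2 and -0.037 to 0.038 for SUCLG2.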
